A study of Mus musculus with 3 samples.

Results

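The Ly6 surface genes followed here were Ly6c1, Ly6c2, Ly6g, Ly6a, Ly6e and Ly6d, 6 of the 32285 genes in the count tables, chosen by name and not by their values. Their transcripts were counted by scRNA-seq in leukocytes of peripheral blood (PB), with a single library for each of 3 conditions. The naive library came from wild-type BALB/c mice. The D11 and D14 libraries came from BALB/c mice engrafted with BBC2 cells and were taken at an intermediate and a late stage of the leukemia, 11 and 14 days after engraftment. BBC2 is a GFP+ line of stem cell leukemia/lymphoma (SCLL) with a pro-B-like phenotype, derived from stem cells carrying BCR-FGFR1. The engraftment methods describe 6–8-week-old female mice, and how many mice were pooled per library is not given in the sources used here. Red cells were lysed and dead cells removed before capture. With 1 library per condition no difference below has a replicate check, so values are given with 95% intervals that cover counting error only, and fewer cells of a kind within a class cannot be told apart from less RNA per cell.

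Ly6 proteins are small, disulfide-bonded surface molecules of the Ly6/uPAR family, held on the outer leaflet of the plasma membrane by a glycosylphosphatidylinositol anchor. In mouse blood they are best known as antibody targets: Ly6C separates classical from non-classical monocytes, Ly6G marks neutrophils and together with Ly6C makes up the Gr-1 epitope, and Ly6A is Sca-1, the marker of hematopoietic stem cells and of activated T cells. Ly6E (TSA-1) is widely expressed and interferon-inducible, and Ly6D appears on early lymphoid progenitors committed to the B lineage. Strains that carry the Ly6.1 haplotype, BALB/c among them, are known for low Sca-1 on resting lymphocytes.

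All 6 genes lay in one cluster on chromosome 15, from 74762056 to 75159126 in GRCm38 (mm10), a span of 397 kb with 14 protein-coding genes. In order, Ly6d occupied 74762056–74763620 on the minus strand, Ly6e 74955051–74959905 on the plus strand, Ly6a 74994877–74998031 on the minus strand, Ly6c1 75044018–75048830 on the minus strand, Ly6c2 75108158–75111970 on the minus strand and Ly6g 75155240–75159126 on the plus strand. Ly6c1 and Ly6c2, which together encode what Ly6C antibodies recognise, were the closest pair in sequence. Their coding sequences are shown to give how alike the pair is, although most reads of 3′ libraries lie after the stop codon. Each is spliced from 3 coding exons, the first 300 of 393 bases are printed 5′ to 3′, and capitals mark the 7 bases in this stretch that differ between the pair.
Ly6c1: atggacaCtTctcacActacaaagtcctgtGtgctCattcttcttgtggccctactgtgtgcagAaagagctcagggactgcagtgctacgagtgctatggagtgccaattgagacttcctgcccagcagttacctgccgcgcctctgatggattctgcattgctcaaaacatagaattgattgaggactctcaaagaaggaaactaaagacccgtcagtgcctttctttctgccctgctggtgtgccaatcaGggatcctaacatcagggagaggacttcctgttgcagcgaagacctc
Ly6c2: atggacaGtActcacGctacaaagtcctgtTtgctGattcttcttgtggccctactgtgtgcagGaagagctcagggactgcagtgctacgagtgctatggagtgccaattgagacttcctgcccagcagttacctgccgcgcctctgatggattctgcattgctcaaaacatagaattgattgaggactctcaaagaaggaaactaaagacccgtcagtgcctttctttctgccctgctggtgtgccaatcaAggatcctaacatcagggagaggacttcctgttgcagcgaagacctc

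The 2 coding sequences differed at 9 of 393 bases (97.7% identical), and the stretches after the stop codon, where 3′ libraries place most reads, were 96.4% identical. Of 411 windows of 90 bases in the last 500 bases of either transcript, 35 (8.52%) were identical in the other gene. The coding sequence of Ly6c2 was 81.6% identical to that of Ly6a, 78.1% to Ly6g, 50.7% to Ly6d and 50.2% to Ly6e. The reference is C57BL/6 and the mice were BALB/c, so any split of reads between Ly6c1 and Ly6c2 is uncertain, and the stronger of the pair, Ly6c2, is given first throughout.

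After cells with fewer than 200 genes or more than 10% mitochondrial UMIs were left out, 3811, 4567 and 4414 cells remained in the naive, D11 and D14 libraries, with median depths of 6031, 6389 and 6781 UMIs. Hemoglobin took 2.42%, 37.4% and 11.8% of their UMIs. Cells were assigned to classes by 8 markers per class that hold no Ly6 gene, and each class name below means cells that resemble that type by these markers. In every class that gave values the 10 genes with the highest fold held no marker of another class, and Ly6g was among these 10 genes in the neutrophil class. Between 4.72% and 10.4% of cells stayed unassigned. The kept libraries shared 3 to 5 cell barcodes per pair. Levels are UMIs of a gene per 1000000 UMIs (CPM) of the summed class, and comparisons between classes or libraries are made within a gene, not between genes.

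**Figure D1:**
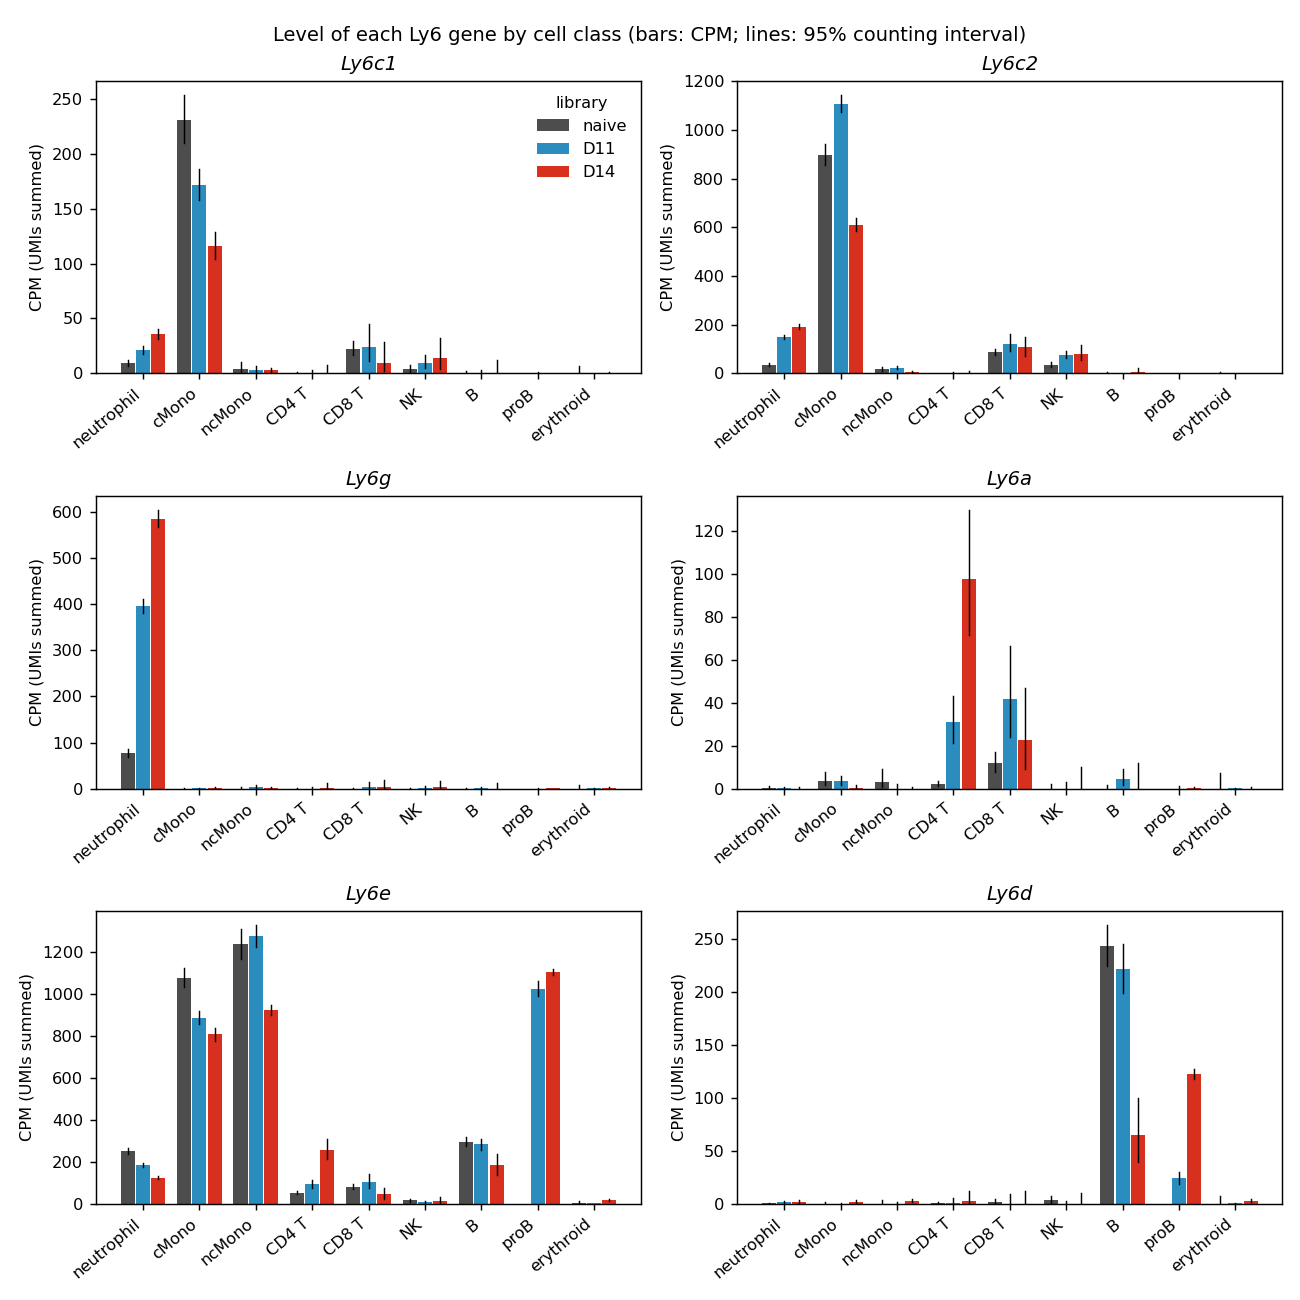
Level of each Ly6 gene (CPM, vertical axis) in each cell class of the naive, D11 and D14 libraries. Bars are sums over a class of at least 20 cells and lines are 95% intervals for counting error, and naive blood has no pro-B-like bar. Ly6c2 and Ly6c1 peaked in cMono, Ly6g in neutrophils, Ly6a in CD4 or CD8 T cells and Ly6d in B and pro-B-like cells, while Ly6e was high in both monocyte classes and in pro-B-like cells.

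The members differed in the class that held most of their UMIs. In the naive library classical monocytes (cMono) held 64.4% of all Ly6c2 UMIs and 65.2% of all Ly6c1 UMIs, neutrophils 97.0% of Ly6g, T cells 70.0% of Ly6a and B cells 94.3% of Ly6d. Ly6e was spread widely, with 29.8% of its UMIs in cMono, 18.3% in neutrophils, 17.8% in non-classical monocytes (ncMono) and 10.9% in B cells. At D14 the leading class had changed for Ly6e and Ly6d, of which pro-B-like cells then held 63.6% and 75.9%. The pro-B-like class had 2 cells in naive blood, 91 in D11 blood and 665 in D14 blood, and 144 of the latter sat at the edge of its gate. The count tables have no entry for GFP, so these cells were not separated into leukemic and host cells.

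Over all cells kept, without regard to class, Ly6g was 15.03, 79.3 and 76.4 CPM in the naive, D11 and D14 libraries, Ly6e 259.5, 315 and 746 CPM, and Ly6d 24.6, 13.7 and 69.3 CPM. Of the 4 members with at least 50 CPM in either library, 3 (Ly6g, Ly6e and Ly6d) were at least 2-fold higher at D14 than in naive blood, where 13.8% of all genes were. At D11 the count was 1 of 3, Ly6g, against 2.11% of all genes, in a library whose large hemoglobin fraction put the median gene at a log2 ratio of −0.72. Ly6g and Ly6d passed the 50 CPM limit only through a leukemic library, so their places in these counts are not separate support. When pro-B-like cells were left out, the D14 level of Ly6e became 475 CPM (log2 ratio to naive 0.87) and that of Ly6d 29.3 CPM (0.25). Unassigned cells stayed in these sums and held most of the remaining 857 Ly6d UMIs at D14. The mix of classes was not held fixed either, as ncMono made up 3.20% of all cells kept in naive blood and 14.2% at D14. Neither ratio is therefore a change within a class. Ly6c2 at D14 changed direction when pro-B-like cells were left out. It was at 69.3 CPM over all cells (log2 ratio −0.53) and at 121 CPM without pro-B-like cells (0.28, 0.21 to 0.35). The 2 leukemic libraries were both set against the same naive library, so their ratios are not independent of each other.

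Ly6c2, a GPI-anchored glycoprotein and the marker that defines inflammatory monocytes, was at 899 CPM in cMono of naive blood, 1107 at D11 and 611 at D14. In ncMono of the same libraries it was at 16.3, 24.2 and 7.91 CPM. The naive, D11 and D14 levels in cMono were thus 55.3, 45.8 and 77.2 times those in ncMono. Neither gate used a Ly6 gene, but the paper names gate markers such as Ccr2, Fn1 and F13a1 beside Ly6c2 for cMono in these data. The difference in Ly6c2 is therefore not separate support for the gates. Ly6c2 UMIs were found in 94.6%, 97.1% and 93.3% of cMono and in 8.20%, 9.5% and 2.55% of ncMono, and after thinning to 1000 UMIs per cell in 50.9%, 59.6% and 39.0% of cMono. As a background, 1 of 665 pro-B-like cells at D14 (0.150%) had a Ly6c2 UMI at a class level of 0.0455 CPM, and barcodes with fewer than 200 genes held 0.319, 0.610 and 2.31 CPM.

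Within cMono Ly6c2 was a little higher at D11 than in naive blood, with a log2 ratio of 0.30 (0.22 to 0.38), and lower at D14, with −0.56 (−0.65 to −0.46). Neither reached 2-fold, and none of the 3 members measurable in cMono did so at D11 or D14, where 0.591% and 4.47% of all genes in cMono were up and 0.564% and 3.78% down by that much. Ly6c1 at D14 fell only just short, at −0.99, and was past 2-fold under 4 of 9 other settings of the processing. Of the cMono, 9, 28 and 24 sat at the edge of the gate. Single cells of the 3 libraries overlapped widely. The median cMono held 7.17 Ly6c2 UMIs per 10000 UMIs in naive blood, 9.74 at D11 and 5.13 at D14, while the highest cell reached 35.5, 38.5 and 28.6. Depth moved with this result: the median cMono had 12578, 13671 and 20630 UMIs, and cMono with any Ly6c2 UMI held a median of 11, 13 and 12 of them. How far the deeper D14 cells shaped the lower share was not tested.

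Ly6c1 was lower with leukemia in the same class, at 231 CPM in naive blood, 172 at D11 and 116 at D14. The log2 ratios to naive were −0.43 (−0.61 to −0.24) and −0.99 (−1.20 to −0.79), so at D11 Ly6c1 was lower where Ly6c2 was higher. In cMono with a Ly6c1 UMI, Ly6c2 was found as well in 98.2%, 99.4% and 98.0% of cells.

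In the classes with most UMIs of the pair the Ly6c1 share followed the library more than the class. Over all cells Ly6c1 gave 20.2% of the pair in naive blood (18.9 to 21.6), 13.4% in D11 blood (12.6 to 14.3) and 15.9% in D14 blood (14.8 to 17.0). In naive blood cMono gave 20.4%, neutrophils 20.2% and CD8 T cells 20.1%, and at D11 and D14 cMono gave 13.4% and 15.9% and neutrophils 12.6% and 15.6%. NK cells gave 9.09% in naive blood (3.41 to 18.7), from 6 Ly6c1 and 60 Ly6c2 UMIs, with an interval that overlapped those of CD8 T cells and neutrophils. ncMono gave 26.8% at D14 (16.9 to 38.6), from 19 and 52 UMIs. A single cell held 12 of those 19 Ly6c1 UMIs, which the interval does not cover. The share was thus lower at D11 by a like amount in monocytes and in neutrophils. Whether this came from how reads were assigned to the 2 genes was not tested.

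**Figure D2:**
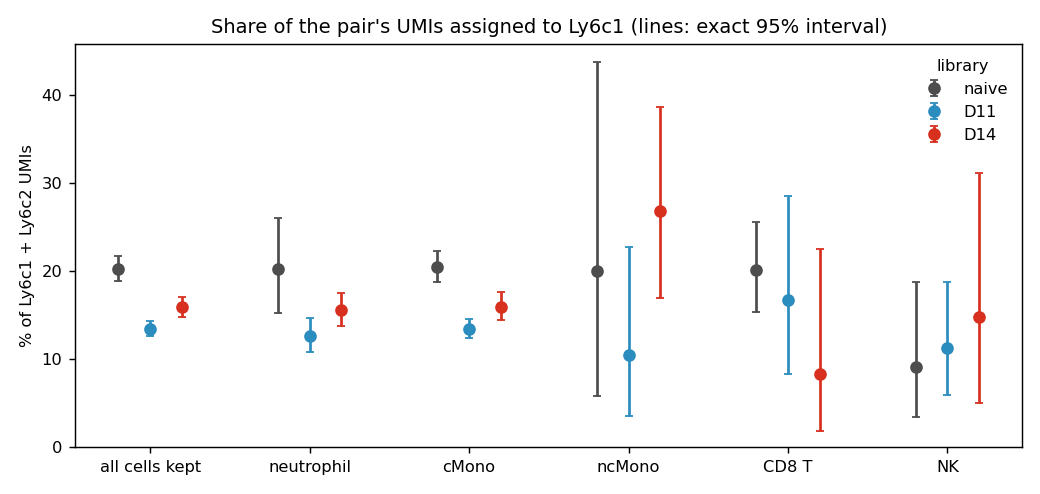
Share of Ly6c1 among the UMIs of Ly6c1 and Ly6c2 (percent, vertical axis) by cell class and library, for classes with enough UMIs of the pair. Points are sums over a class and bars are 95% Clopper-Pearson intervals. The naive points of cMono, neutrophils and CD8 T cells sit at 20.1% to 20.4%, above those of cMono and neutrophils at D11 and D14.

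Cells with markers of both monocyte classes carried intermediate Ly6c2. These were unassigned cells with at least 3 markers of each of the 2 classes and fewer of any other class. The 31 at D11 and 29 at D14 were at 325 and 283 CPM. They were below cMono by 3.40-fold and 2.16-fold and above ncMono by 13.5-fold and 35.8-fold. Whether some of them were doublets of the 2 classes was not tested. Ordered by the balance of cMono over ncMono markers, naive monocytes went from 997 CPM where cMono markers led by 5 or more to 783 where they led by 3 or 4, and to 67.9, 17.8 and 12.6 CPM where ncMono markers led by 1 or 2, 3 or 4, and 5 or more. The D11 steps ran from 1206 to 20.8 CPM. The D14 steps ran from 724 CPM through 411 and 414 where cMono markers led by less, then to 146, 3.24 and 1.96 CPM on the ncMono side. At both ends of this order the D14 library was the lowest of the 3. D11 was the highest at the cMono end. At the ncMono end the D11 interval (13.8 to 30.1) overlapped the naive one (5.08 to 26.0), from 28 and 7 UMIs.

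**Figure D3:**
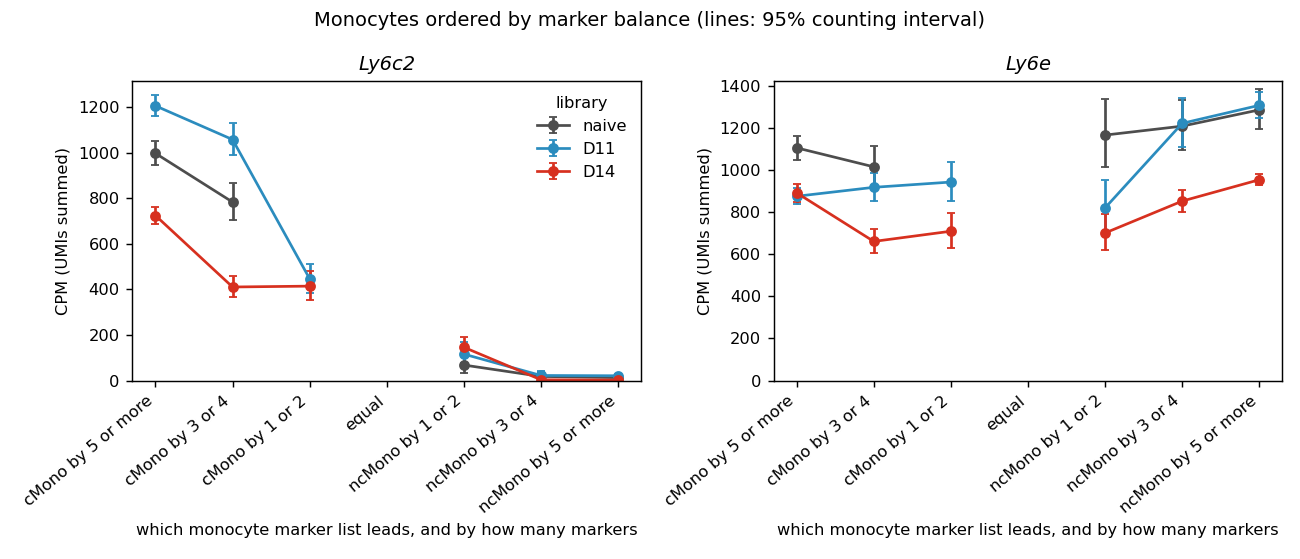
Ly6c2 (left) and Ly6e (right) levels in monocytes (CPM) by which of the cMono and ncMono marker lists led in a cell and by how many markers, for the naive, D11 and D14 libraries. Points are sums over at least 20 cells, vertical lines are 95% intervals for counting error, and gaps mark steps with fewer cells. Ly6c2 spans 997 to 12.6 CPM across the naive steps, whereas Ly6e runs from 1105 to 1286 CPM across the same steps.

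Outside monocytes Ly6c2 was present in CD8 T cells, NK cells and neutrophils. CD8 T cells, whose memory cells carry Ly6C, were at 88.5, 122 and 107 CPM and CD4 T cells at 0.985, 1.81 and 2.08 CPM, a difference of 89.8-fold in naive blood. The CD8 values did not differ between libraries beyond counting error, with log2 ratios to naive of 0.47 (−0.01 to 0.92) and 0.27 (−0.30 to 0.81). Within naive CD8 T cells, the 55 cells with Ccl5, a chemokine of effector and memory cells, held 174 CPM (144 to 209) and the 166 without it 53.0 CPM (42.4 to 65.5). At D11 these were 116 and 126 CPM with overlapping intervals.

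NK cells held 36.7 CPM of Ly6c2 in naive blood, 76.6 at D11 and 79.9 at D14, from 60, 95 and 29 UMIs. The log2 ratios to naive were 1.06 (0.58 to 1.55) and 1.12 (0.43 to 1.79), both past 2-fold, which 0.462% of genes in NK cells reached at D11 and 2.66% at D14. Without the NK cell holding the most Ly6c2 UMIs in each library the D14 ratio was 0.64, below 2-fold. Of the members, Ly6c2 alone had 50 CPM in NK cells, and only at D11 and D14, so it was counted through the libraries where it was high. Ly6e, in contrast, was at 15.3, 8.06 and 13.8 CPM there, with overlapping intervals.

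Ly6g, which encodes the GPI-anchored neutrophil antigen of Gr-1 staining, was at 76.9 CPM in neutrophils of naive blood, 397 at D11 and 586 at D14. Neutrophils held 97.0%, 94.3% and 95.7% of the Ly6g UMIs of the 3 libraries. cMono held 0, 2 and 3 Ly6g UMIs, or 0, 0.601 and 1.02 CPM, where a count of 0 allows up to 1.59 CPM in the naive library. The log2 ratios in neutrophils were 2.37 (2.21 to 2.52) at D11 and 2.93 (2.78 to 3.08) at D14. A Ly6g UMI was found in 9.29%, 29.2% and 44.9% of neutrophils.

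Ly6c2 was higher in neutrophils of both leukemic libraries as well, at 36.4 CPM in naive blood and 149 and 193 CPM at D11 and D14. Its log2 ratios were 2.03 (1.80 to 2.27) and 2.41 (2.18 to 2.64). Ly6c1 was at 9.19, 21.4 and 35.5 CPM. At D14, 2 of the 3 members with at least 50 CPM were up and 1, Ly6e, was down by 2-fold or more, against 7.54% and 10% of all genes in neutrophils. Ly6e was only just past 2-fold, and with library factors from a trimmed mean of M values (TMM) its log2 ratio was −0.81. At D11, 2 of 3 were up and 0 down, against 1.6% and 1.2%. Ly6c2 passed the 50 CPM limit only through the leukemic libraries, so its place in these counts is not separate support. In Ly6g-positive neutrophils a Ly6c2 UMI was found in 27.0%, 47.3% and 57.2% of cells and in Ly6g-negative ones in 5.77%, 6.26% and 7.38%. The 8 cMono markers summed to 481, 777 and 650 CPM in neutrophils, of which Mgst1 alone gave 445, 725 and 618 CPM, and the other 7 summed to 36.2, 52.3 and 31.8 CPM. Their part in the Ly6c2 result was not tested.

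The higher Ly6g went together with granule genes, the transcripts of secondary granule proteins that neutrophils make while they mature in the marrow. When neutrophils were ordered by how many of 7 granule genes (Ltf, Camp, Ngp, Cd177, Lcn2, Fcnb and Chil3) were found, cells with 0 or 1 made up 89.7% of naive neutrophils, 68.5% at D11 and 28.3% at D14. Cells with 5 to 7 made up 1.03%, 6.97% and 22.5%. In the naive library these were 14 cells, which held 219 of the 385 Ly6g UMIs of the class.

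At a fixed number of granule genes D14 and naive neutrophils were closer, while D11 stayed further above naive. With 0 or 1 granule gene Ly6g was at 30.2 CPM in naive neutrophils, 65.9 at D11 and 43.9 at D14, and the log2 ratio of D14 to naive was 0.54 (−0.02 to 1.07). With 2 it was at 55.3, 220.0 and 131 CPM. At every step from 2 to 7 the D14 level was below the D11 level: 320 against 388 CPM with 3, 465 against 845 with 4 and 1140 (1098 to 1183) against 1671 (1593 to 1753) with 5 to 7. Over all neutrophils with at least 4 granule genes the log2 ratio of D14 to D11 was −0.57 (−0.65 to −0.49), while over all neutrophils it was 0.56 (0.49 to 0.63). Over the wider group with fewer than 4, in which the number of granule genes still varied, it was 0.47 (0.30 to 0.63). D14 was thus below D11 at each step, although the intervals overlapped at 0 or 1 and at 3. All 3 ratios were smaller than 2-fold.

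Ly6c2 in neutrophils showed the same order. Neutrophils with at least 4 granule genes were at 506 CPM at D11 and 324 at D14, which was 9.11-fold and 6.34-fold above neutrophils with fewer. With 0 or 1 granule gene Ly6c2 was at 27.1, 32.6 and 18.5 CPM in the 3 libraries, the last from 16 UMIs, and all 3 intervals overlapped each other. Depth differed along the same axis: the median neutrophil with 0 or 1 granule gene had 3361, 2953 and 1702 UMIs and those with 5 to 7 had 7976 at D11 and 8017 at D14, and deeper cells pass a count of detected genes more easily. The part of depth in the order was not tested.

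**Figure D4:**
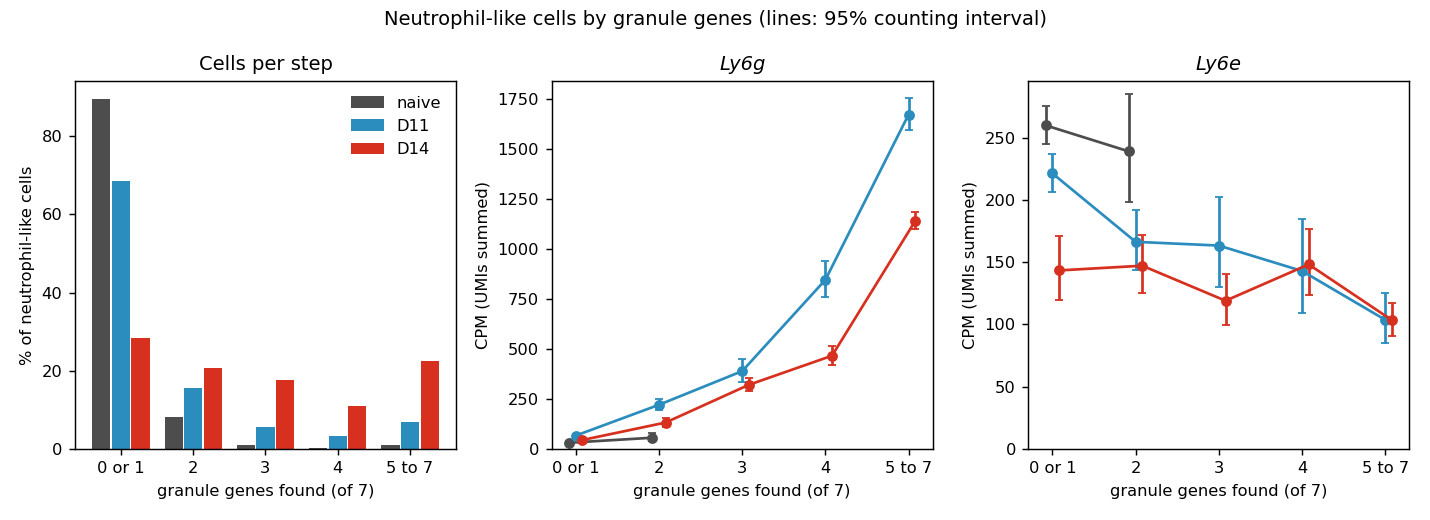
Share of neutrophils (percent, left), Ly6g level (CPM, middle) and Ly6e level (CPM, right) by the number of 7 granule genes found in a cell, for the naive, D11 and D14 libraries. Left bars are shares of cells, and points are sums over at least 20 cells with 95% intervals for counting error. Ly6g climbs from 65.9 to 1671 CPM across the D11 steps and from 43.9 to 1140 CPM across the D14 steps, and the share of cells at the low end drops from 89.7% in naive blood to 28.3% at D14.

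Ly6e went the other way in neutrophils. Naive neutrophils held 251 CPM, D11 neutrophils 186 and D14 neutrophils 125. The log2 ratios to naive were −0.43 (−0.54 to −0.32) and −1.01 (−1.14 to −0.88). It was lower with leukemia at the 2 lowest granule steps as well. With 0 or 1 granule gene it was at 260, 221 and 143 CPM, and no 2 of these intervals overlapped. With 2 it was at 239, 166 and 147 CPM, and the D11 and D14 intervals overlapped. Among cells with 5 to 7 granule genes it was 104 CPM at D11 and 103 at D14. The naive cells of that step were lower, at 38.3 CPM (14.1 to 83.4), but were 14 cells, under the limit of 20.

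In monocytes Ly6e was high in both classes. cMono were at 1080.0 CPM in naive blood, 888 at D11 and 808 at D14, and ncMono at 1240 (1171 to 1311), 1277 (1225 to 1330) and 924 (901 to 948). The D14 log2 ratios were −0.42 in both, with intervals of −0.50 to −0.33 in cMono and −0.51 to −0.33 in ncMono. At D11 cMono were at −0.28 and ncMono at 0.04 (−0.06 to 0.14). Ly6e was a little lower in cMono than in ncMono of each library, with log2 ratios of cMono to ncMono of −0.20 (−0.30 to −0.10), −0.52 (−0.60 to −0.44) and −0.19 (−0.26 to −0.12), whereas Ly6c2 was steeply graded the other way.

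Ly6e is known to respond to interferon, and a list of 21 interferon-induced genes was set beside it. In cMono 14 of them had at least 50 CPM, and at D14 all 14 had log2 ratios below 0, with a median of −1.48 against 0.02 over all genes, and 8 of them were down at least 2-fold, against 3.78% of all genes. At D11 the median was −0.42, with 12 of 14 below 0. Only 12 list genes were measured in cMono at D14 against D11. Some of the 14 thus passed the 50 CPM limit only through naive blood, where they were high, so these counts are not separate support. In neutrophils at D14 the median was −1.19 over 8 genes, 5 of them down 2-fold against 10% of all genes, where the median of all genes was −0.25. In neutrophils with fewer than 4 granule genes the list median at D14 was 0.10 over 12 genes, while Ly6e was at −0.93 there. Only 9 list genes were measured in that group at D11 against naive. Some of the 12 thus passed the 50 CPM limit only through D14, where they were high, so this median is not separate support. It also covers more genes than the 8 of the whole class. In ncMono the list median at D14 was −0.89 over 7 genes. As in cMono, some of them were counted only through naive blood, since 5 were measured at D14 against D11. In CD8 T cells at D11 all 9 measured list genes were above 0, 4 of them up by 2-fold against 4.01% of all genes, with a median of 0.94. Only 4 list genes were measured there at D14 against naive, so most of the 9 passed the 50 CPM limit only through D11. Their counts are therefore not separate support. At D14 the list median was 0.36 over 4 genes in CD8 T cells, where Ly6e was at −0.81. In B cells it was 0.11 over 2, where Ly6e was at −0.69, and in CD4 T cells −0.03 over 5, where Ly6e was at 2.27. Without CD4 T cells holding a UMI of Cd79a, Vpreb1 or Igll1 that Ly6e value was 1.03.

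As a summed class, CD4 T cells carried little Ly6e in naive blood and more at D14. They were at 53.5 CPM in naive blood, 94.4 at D11 and 258 at D14, with log2 ratios of 0.82 (0.49 to 1.14) and 2.27 (1.97 to 2.57). A single cell of the 51 at D14 held 74 of the 124 Ly6e UMIs, and that cell had 49444 UMIs and carried transcripts of the B lineage. Without the top cell of each library the D14 log2 ratio was 1.18, and without cells holding a UMI of Cd79a, Vpreb1 or Igll1 the levels were 50.3, 97.1 and 103 CPM. The log2 ratios were then 0.95 (0.61 to 1.27) and 1.03 (0.52 to 1.50). The make-up of the class moved as well. Cells with an S100a4 UMI were 10.4%, 40.6% and 60.8% of CD4 T cells. They held 112, 167 and 332 CPM of Ly6e, the last with the cell of 74 UMIs included. Those without an S100a4 UMI held 44.9, 23.3 and 54.5 CPM, the last from 7 UMIs in 20 cells. How far this mix shaped the class level was not tested. The 8 pro-B markers summed to 35.2, 6.35 and 139 CPM in CD4 T cells, and barcodes with fewer than 200 genes held 2.55, 2.74 and 26.0 CPM of Ly6e. Their part in the Ly6e result was not tested. CD8 T cells were at 79.8, 105 and 45.4 CPM, and at D14 the log2 ratio was −0.81 (−1.71 to −0.03). Of their 14 Ly6e UMIs at D14, 9 were in 1 cell with a UMI of Cd79a, Vpreb1 or Igll1. Without cells holding such a UMI CD8 T cells were at 80.8, 106 and 18.1 CPM, the last from 5 UMIs. The D14 log2 ratio was then −2.16 (−3.80 to −0.91). In CD4 T cells the members past 2-fold at D14 were Ly6a and Ly6e, both of the 2 measured, against 8.44% of genes up, and 0 of 1 at D11 against 3.46%. Ly6a passed the 50 CPM limit there only through D14, so its place in this count is not separate support.

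Ly6a, the gene of Sca-1, was found mostly in T cells, which held 70.0%, 81.5% and 77.0% of its UMIs in the 3 libraries. T cells were at 4.04 CPM in naive blood, 39.8 at D11 and 57.8 at D14, from 49, 88 and 57 UMIs, with log2 ratios of 3.30 (2.78 to 3.83) and 3.84 (3.26 to 4.42). NK cells held 0 Ly6a UMIs in all 3 libraries, which allows up to 1.83, 2.42 and 8.27 CPM, and neutrophils 1, 1 and 0 UMIs. Ly6a and Ly6e, the 2 members with at least 50 CPM in T cells at D14, were both up 2-fold there, against 5.51% of genes. For Ly6e this rested on the cell of 49444 UMIs, which was among the cells removed by doublet score: without the top cell of each library its log2 ratio in T cells was 0.48 (0.11 to 0.84), and with the highest-scoring doublets removed 0.64. Ly6a passed the 50 CPM limit in T cells only through D14, so its place in this count is not separate support. Without its top cell it was at 25.5 CPM there, below the limit.

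**Figure D5:**
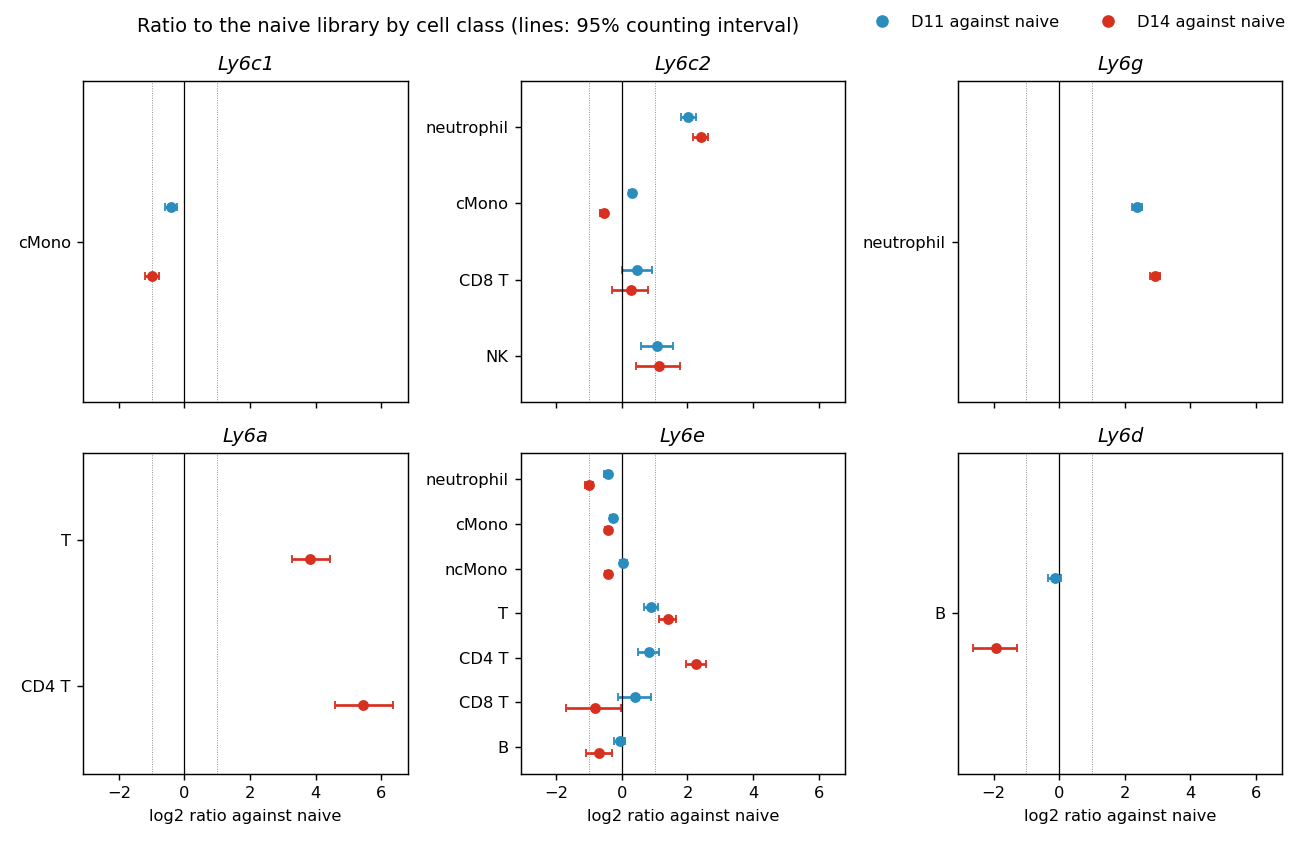
Log2 ratio of D11 and D14 to the naive library for each Ly6 gene and each cell class where it had at least 50 CPM in either library, with 95% intervals for counting error and dotted lines at 2-fold. In neutrophils Ly6g and Ly6c2 lie to the right of 0 (2.93 and 2.41 at D14) and Ly6e to the left (−1.01), Ly6a lies furthest to the right (3.84 in T cells and 5.44 in CD4 T cells), and Ly6d in B cells lies to the left at D14 (−1.91).

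Few cells carried this difference. Ly6a was found in 30 of 1326 T cells in naive blood, 23 of 295 at D11 and 12 of 116 at D14, and 1 cell at D14 held 32 of the 57 UMIs. Without the top cell of each library T cells were at 3.63, 29.4 and 25.5 CPM, and the D14 log2 ratio was 2.82 (2.05 to 3.56). The order of D11 and D14 was thus set by single cells, whereas the naive library stayed lowest.

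At D11 and D14, but not in naive blood, most T cells with a Ly6a UMI also had a UMI of Foxp3, the transcription factor of regulatory T cells. Foxp3 UMIs were found in 105, 51 and 20 T cells, or 7.92%, 17.3% and 17.2% of T cells. These cells held 12 of 49, 70 of 88 and 50 of 57 Ly6a UMIs, or 24.5%, 79.5% and 87.7%. Their Ly6a level was 11.0 CPM (5.68 to 19.2) in naive blood, 143 (111 to 180) at D11 and 240 (178 to 317) at D14. A single Foxp3+ cell held 23 of the 70 UMIs at D11 and another 32 of the 50 at D14. A Ly6a UMI was found in 6, 16 and 9 of the Foxp3+ cells, and the intervals do not cover this unevenness. T cells without a Foxp3 UMI were at 3.35 (2.36 to 4.62), 10.45 (6.19 to 16.5) and 9.0 CPM (3.62 to 18.5). Foxp3+ cells were above the rest in each library and their interval in naive blood lay below those of D11 and D14.

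Split by coreceptor, CD4 T cells were at 2.25, 30.8 and 97.7 CPM of Ly6a and CD8 T cells at 11.8, 41.6 and 22.7 CPM. In naive blood CD8 T cells were therefore 5.23-fold above CD4 T cells, and at D14 CD4 T cells were the higher. At D11 a single CD4 T cell held 23 of 34 UMIs. Without it CD4 T cells were at 10.0 CPM (5.01 to 17.9). The T cells assigned to neither group, 96 at D11, had a D11 log2 ratio to naive of 4.59. A single CD4 T cell at D14 held 32 of 47 UMIs, and without the top cell of each library CD4 T cells at D14 were at 31.7 CPM (17.7 to 52.2), a log2 ratio to naive of 4.11, with an interval that overlapped that of all CD8 T cells (9.12 to 46.7). In CD8 T cells the D11 log2 ratio was 1.82 (0.86 to 2.75), and the D14 ratio of 0.95 had an interval that included 0 (−0.50 to 2.18). CD4 T cells without a Foxp3 UMI held 8 Ly6a UMIs in 692 cells in naive blood, 1 in 116 at D11 and 0 in 36 at D14.

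Ly6d marked B cells in naive blood and pro-B-like cells at D14. B cells were at 243 CPM (224 to 263) in naive blood, 221 (198 to 245) at D11 and 64.4 (39.4 to 99.5) at D14. Against naive blood the D11 log2 ratio was −0.14 (−0.33 to 0.06) and the D14 ratio −1.91 (−2.63 to −1.27). The D14 value came from 20 UMIs in 12 of 40 cells, against 614 UMIs in 399 cells of naive blood. Of the 2 members measured in B cells, 1 was down 2-fold at D14, against 3.44% of genes, and 0 at D11, against 0.495%. Ly6e in the same cells was at 296, 284 and 184 CPM, with a D14 log2 ratio of −0.69 (−1.10 to −0.30).

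In pro-B-like cells Ly6d was at 23.8 CPM at D11 and 123 at D14, a log2 ratio of 2.36 (2.03 to 2.72). Of the 2 members measured there it was the one past 2-fold, against 2% of genes up and 0.244% down. Ly6d had 50 CPM there only at D14, so it was counted through the library where it was high. Ly6e was nearly level, at 1025 CPM (990 to 1062) at D11 and 1105 (1092 to 1119) at D14. Ly6c2, Ly6c1, Ly6g and Ly6a stayed at or below 0.455 CPM at D14 and at 0 UMIs at D11.

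Ly6d was uneven among pro-B-like cells, whereas Ly6e was not. At D14, 407 of 665 cells had no Ly6d UMI, and 73 cells (11.0%) with 10 or more held 79.5% of the UMIs, with 214 in the highest cell. Ly6e was found in 98.6% of the same cells. At D11 a Ly6d UMI was found in 18 of 91 cells (19.8%) and at D14 in 258 of 665 (38.8%). The D11 level rested on few cells, as 4 cells with 10 or more held 71.6% of its UMIs. The counting intervals do not cover this unevenness. The D14 cells with 10 or more Ly6d UMIs had a median depth of 32633 UMIs and those with 0 had 29425.

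Ly6d also varied with cell cycle genes. At D14 pro-B-like cells in which none of 5 cycle genes (Mki67, Top2a, Birc5, Ccnb1 and Cdk1) was found held 411 CPM of Ly6d (71 cells), those with 1 or 2 held 246 (168 cells) and those with 3 to 5 held 62.3 (426 cells). Ly6e over the same steps was at 921, 1127 and 1119 CPM. At D11, 77 of the 91 cells were in the highest step, at 18.8 CPM, so D14 was above D11 at that step as well. Cells at 0 of 5 had a median of 23404 UMIs and those at 3 to 5 had 37539, and the intervals of the 3 Ly6d levels at D14 did not overlap.

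The genes most like each member over 23 sums of class and library were named by Pearson correlation of log2(CPM + 1) among 6831 genes with at least 50 CPM in at least 1 sum. These sums share libraries and depth, so the values are descriptive. For Ly6g they were Stfa3 (0.977), Olfm4, Chil1, Ugt8a and Mrgpra2b, which all peaked in neutrophils at D14. For Ly6c2 they were Lgals3 (0.886), Rab3d, Card19, Morrbid and Anxa2, and for Ly6c1 AI839979 (0.872), Lgals3, Rab3d, Morrbid and Olfm1. Ly6e was most like Bri3bp (0.953), Plac8, Tns3, Zc3h12c and Lyl1, and Ly6d most like the B-lineage genes Pou2af1 (0.960), Spib, Cd79a and Blnk. Ly6a was most like Adam12 (0.867), Tnfrsf4, Foxp3, Pard3 and 5830411N06Rik. These lists moved with the settings: with 10 CPM added in place of 1 CPM, Ly6c1 kept 1 of its 5 genes, Ly6g 2, Ly6c2, Ly6a and Ly6d 3 each and Ly6e 4.

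Of 34 other Ly6/uPAR domain genes on the list, 3 had at least 50 CPM in any class. Plaur, the urokinase receptor, was at 613, 783 and 1074 CPM in neutrophils of the naive, D11 and D14 libraries. Lypd6b was at 63.8, 44.3 and 33.5 CPM in T cells, and Cd59a, which encodes a complement inhibitor, was at 58.6 CPM in naive erythroid cells. The neighbours Ly6i and Ly6k stayed at or below 10.7 CPM in every class.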

How the data were processed

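PB leukocytes of naive, D11 and D14 mice were measured with 10x Genomics 3′ v3 reagents, 1 library per condition. The deposited files hold raw UMI counts per gene and cell barcode from the filtered matrices the authors made with Cell Ranger and mm10; the file headers name version 5.0.1 and the submitters' processing notes 7.1.0. The Ly6 genes, gates and lists were chosen with earlier results of these data known. Cells were kept from 200 genes up and to 10% mitochondrial UMIs, and joined the class with most of its 8 markers, given at least 3 and 2 more than the next class. Neutrophils were divided at 4 of 7 granule genes and T cells by Cd4 or by Cd8a and Cd8b1. Counts were summed per class of at least 20 cells. Levels have exact Poisson intervals, ratios exact conditional binomial ones and shares Clopper-Pearson ones (95%), which cover counting error only; no test was made. The background for 2-fold differences was every gene that reached 50 CPM in 1 of the libraries compared, and 3 counts were the limit that a count of 0 allows. Named genes were the 6 members, list genes with at least 50 CPM and the 5 genes most correlated with each member, of which 1 is not reported here. Doublets were not removed in the reported values and were removed with Scrublet as an alternative. The steps were tested on simulated data. Depth was 5386, 8536 and 9337 barcodes and 30362408, 57640396 and 65861863 UMIs before filtering. Sequences came from GRCm38 with GENCODE annotation. Python 3.11.15, numpy 2.4.6, scipy 1.17.1, pandas 2.3.3, scanpy 1.11.5, biopython 1.88 and edgeR 4.0.16 (TMM factors) were used.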

Additional observations from a re-analysis of the deposited data

Results flagged for a closer look

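Ly6e differed in direction between classes at D14. Its log2 ratio to naive was 1.40 in T cells and 2.27 in CD4 T cells, and −1.01 in neutrophils, as it was below 0 in both monocyte classes, B cells and CD8 T cells. The difference between classes was not tested, since each condition had 1 library. Without the top cell of each library the T cell value was 0.48 (0.11 to 0.84) and the CD4 T cell value 1.18 (0.73 to 1.61).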

How the results depend on the processing

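No paired analysis was possible because each condition had 1 library. Each member was followed at D14 against naive in its highest class (cMono for Ly6c1 and Ly6c2, ncMono for Ly6e, neutrophils for Ly6g, T cells for Ly6a, B cells for Ly6d). Under other gates, cell filters, doublet removal, CPM without ribosomal, mitochondrial and hemoglobin genes, and a mean of per-cell CPM, all 6 log2 ratios kept their sign and stayed within counting error. Ly6g in neutrophils moved from 2.93 to 3.12 with TMM factors, to 3.10 without the top cell of each library and to 0.54 with 0 or 1 granule gene, and Ly6a in T cells moved from 3.84 to 2.82 without the top cell. Leaving out top cells or CD4 or CD8 T cells with B-lineage UMIs and holding granule genes fixed were chosen after seeing the data. Of 45 other ratios, 39 kept their sign under every alternative, and 3 changed sign around a reported value whose interval included 0 (Ly6e in ncMono and in B cells at D11, and in neutrophils with granule genes at D14 against D11). The other 3, whose reported intervals excluded 0, each changed direction in 1 of the 407 values: Ly6c2 over all cells at D14 (0.048 as a mean of per-cell CPM, −0.53 from sums), Ly6e in B cells at D14 (0.042 with a gate of 2 markers) and Ly6e over all cells at D11 (−0.16 with all barcodes, 0.28 after filtering). Leaving out pro-B-like cells was not among these 407 values, and it put Ly6c2 over all cells at D14 at 0.28 (0.21 to 0.35). The cause of the changes was not tested. Depth limits Ly6a, whose values rest on 49 to 88 UMIs in T cells, and Ly6d in B cells at D14.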

Other observations

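The primer pair listed for Ly6c2 by the study's quantitative PCR was searched against all 141767 transcripts of the annotation. Both primers matched exactly in 1 transcript, the retained-intron transcript Ly6c2-202 of 2680 bases, at positions 318–340 and 369–391, and in 0 protein-coding transcripts. BALB/c sequence was not used here.

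Promoters of 3 of the 6 genes (Ly6c1, Ly6c2 and Ly6g) were found in the RefSeq table for GRCm38.p6, as windows of 300 bases at 2 starts each. The Ly6c1 and Ly6c2 windows from 75048788 and from 75111922 on chromosome 15 were 73.8% identical over 282 aligned positions, 16 of them gaps, less than their coding sequences. The identity depended on which starts were paired, and ran from 72.6% to 81.4% (the latter over 194 positions). On both strands, the interferon-gamma activated site (GAS, TTCNNNGAA) was in 0 of the 6 windows and in 8.33% of 32544 promoters. The interferon-stimulated response element (ISRE) was in 0 of the 6 windows and in 3.45% of promoters. GAGGAA was in all 6 windows and in 28.1% of promoters. The 2 windows of each gene overlap and the 3 genes are related in sequence, so the 6 windows are not independent of each other.

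Unassigned cells held 22.2% of the Ly6d UMIs at D14, 787 UMIs at 140.5 CPM (131 to 151).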
